A study of Mus musculus with 10 samples.

Results

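Macrophages and microglia were examined in the intermediate lobe (IL) of the mouse pituitary through the transcripts of 34 genes, chosen by symbol and found by matching the Ensembl gene IDs of the deposited table to those symbols. All 34 were present among the 29527 genes of the table. Bulk RNA was sequenced from the dissected IL of 10 mice aged 2 to 3 months, 1 library per mouse: 4 wild-type (WT) mice, 3 p27-/- mice, homozygous for a germline null allele of Cdkn1b, which encodes the cell cycle inhibitor P27, and 3 p27-/-;Sox2+/- mice, which also lack 1 of the copies of Sox2, a transcription factor of pituitary stem cells. Per the study's list of animals, both sexes were used, 2 female and 2 male WT mice and 2 female and 1 male mice of each mutant. The mice were kept on a mixed background, the labels name no treatment, and the mutant alleles were germline, so that macrophages carried them as well as melanotrophs. The values are log2 normalised levels, and a gene was tested where its mean over the 10 samples was at least 10 on the linear scale, which 17268 genes and 30 of the 34 met. Il34, Ccl2, Lyve1 and F13a1 lay under this minimum.

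Macrophages of the pituitary and the microglia of the neighbouring neural lobe are resident phagocytes. They depend on the growth factors CSF1 and IL-34, which signal through the receptor CSF1R, and on the transcription factor PU.1, encoded by Spi1. They make most of the complement protein C1q found in nervous tissue, clear cell debris through lysosomes, and sense their surroundings through receptors that signal through small adaptors with an ITAM motif. Blood monocytes that enter a tissue carry CCR2, and macrophages along vessels are known for MRC1, CD163 and LYVE1.

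RefSeq (GRCm38.p6) gave promoter sequences for 24 of the 34 genes. The 250 bases before the start site are shown for C1qb, C1qc and Ctss, whose values moved together across the samples, and for Cd163, which moved against them. Capitals mark GAGGAA on either strand (TTCCTC where it lies on the other strand), letters found in many binding sites of ETS family factors such as PU.1.
C1qb, chr4:136886201-136886450, minus strand: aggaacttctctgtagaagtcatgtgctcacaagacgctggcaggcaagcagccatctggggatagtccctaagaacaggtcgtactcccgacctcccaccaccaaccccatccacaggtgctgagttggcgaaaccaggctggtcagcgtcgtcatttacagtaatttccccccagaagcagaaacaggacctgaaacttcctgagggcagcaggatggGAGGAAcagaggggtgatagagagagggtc
C1qc, chr4:136892915-136893164, minus strand: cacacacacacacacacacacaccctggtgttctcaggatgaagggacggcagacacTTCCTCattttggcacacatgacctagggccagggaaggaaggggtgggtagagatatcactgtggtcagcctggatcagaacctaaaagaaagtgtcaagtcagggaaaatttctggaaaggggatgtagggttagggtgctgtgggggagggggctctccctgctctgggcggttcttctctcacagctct
Ctss, chr3:95526536-95526785, plus strand: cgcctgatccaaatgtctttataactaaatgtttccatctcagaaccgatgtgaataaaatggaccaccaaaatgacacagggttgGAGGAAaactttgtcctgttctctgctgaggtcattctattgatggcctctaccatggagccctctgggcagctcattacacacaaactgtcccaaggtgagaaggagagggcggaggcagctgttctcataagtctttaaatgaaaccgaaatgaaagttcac
Cd163, chr6:124304401-124304650, plus strand: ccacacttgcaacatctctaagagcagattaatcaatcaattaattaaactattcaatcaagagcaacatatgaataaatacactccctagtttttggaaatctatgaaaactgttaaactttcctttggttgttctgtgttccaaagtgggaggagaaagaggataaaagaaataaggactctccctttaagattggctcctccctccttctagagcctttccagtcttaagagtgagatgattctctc
The letters occurred once in each of the first 3 windows and not in that of Cd163. This contrast did not hold for all genes. Of other genes whose values rose and fell with most of the rest, Aif1 and Laptm5 had 1 match each, and Fcer1g and P2ry12 had none. Fcrls, whose values did not, had 1 match. By the gene positions of RefSeq, the C1qc window reaches 22 bases into the gene and that of Cd163 15 bases. The letters were present before the start of 13 of the 24 genes with a promoter sequence, 54.2%, and of 25.9% of the 27025 genes of the RefSeq promoter table over the same length. A match describes the letters only.

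The IL itself was recognised by its melanotroph genes. Pomc, the precursor of melanocyte-stimulating hormone, lay between 18 and 19 in every library, Pax7 between 11.45 and 11.97 and Tbx19 between 10.58 and 10.90. Cdkn1b lay between 8.39 and 8.85 in WT, 8.04 and 8.27 in p27-/- and 7.73 and 8.10 in p27-/-;Sox2+/- samples, so that its transcript remained measurable in the mutants. Markers of adjoining tissue varied widely among samples of the same genotype. The mean centred level of 9 posterior lobe markers (each log2 value minus the gene's mean over the 10 samples, averaged) was 0.57, -0.59, 0.74 and 0.88 in WT, -0.35, -0.36 and -0.09 in p27-/- and -0.68, -0.73 and 0.63 in p27-/-;Sox2+/- samples in order of replicate, and all 9 markers were above the minimum. The anterior lobe markers, 8 genes, were highest in WT replicate 2, with a mean centred level of 1.65 against 0.60 or less in the other samples.

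Genes of resident macrophages were readily detected. Compared per kb of exon, the most abundant in WT samples was Ctss, the lysosomal protease cathepsin S, with a mean log2 level of 7.94, followed by the lysozyme gene Lyz2 at 7.38, the adaptor gene Tyrobp at 7.31, C1qb at 7.04 and the adaptor gene Fcer1g at 6.60. The SD between WT mice lay between 0.30 and 0.41 for these 5 genes. Lyz2 and Tyrobp each differed from the next gene by less than that SD, whereas Ctss was above Lyz2 and C1qb above Fcer1g by more. Markers more particular to microglia were lower per kb than these 5 genes. P2ry12, the ADP receptor of surveying microglia, was at 3.94, Tmem119 at 3.62, Fcrls at 4.12 and the fractalkine receptor gene Cx3cr1 at 4.30. Of other macrophage genes, Mrc1 at 3.53, Adgre1 at 3.51 and Cd163 at 2.58 lay below these markers, and Cd68 at 6.04 lay above. Ccr2, the chemokine receptor of monocytes, lay at 1.63, and Lyve1 and F13a1, genes of border-associated macrophages, at 0.22 and -0.22.

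**Figure D1:**
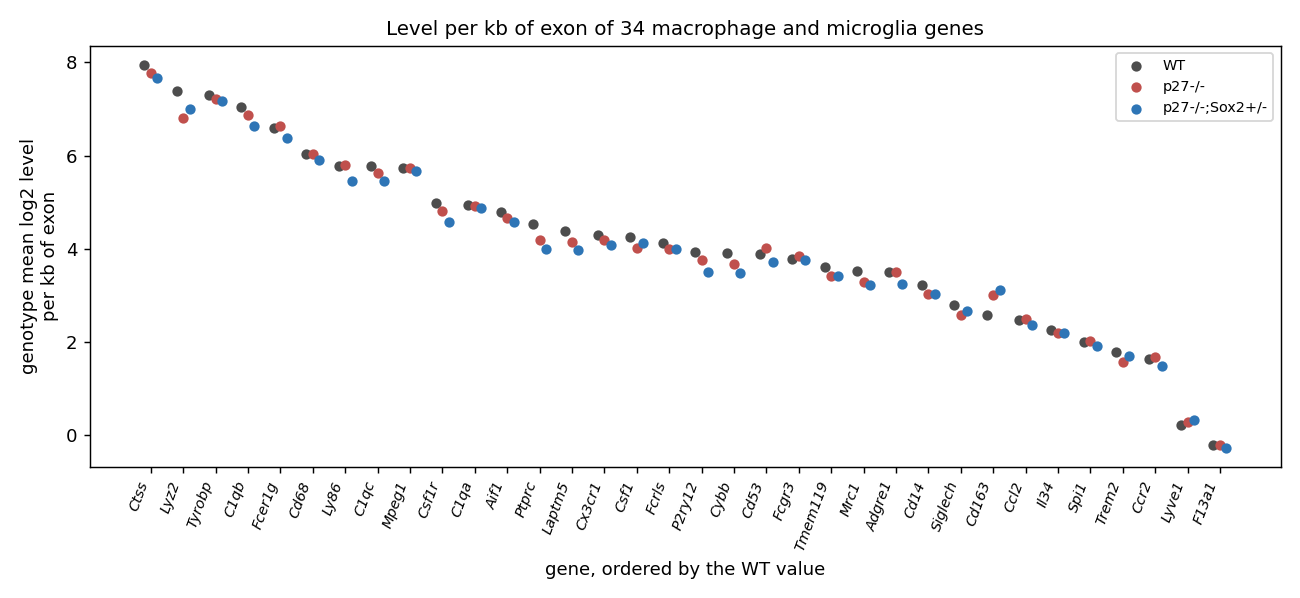
Genotype mean log2 level per kb of exon (y axis) of the 34 genes, ordered by their WT value (x axis), with 1 point per genotype. The levels run from 7.94 for Ctss to -0.22 for F13a1 in WT, and the 3 genotypes lie close together for most genes.

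The values of most genes rose and fell together from mouse to mouse. Over the 10 samples Pearson's r was above 0 for 367 of the 435 pairs of the 30 tested genes, with a median of 0.52, and when the genotype means were removed it was above 0 for 351 pairs, with a median of 0.47. These are descriptions over 10 libraries that share depth and tissue content. WT replicate 1 was the highest WT sample for 22 of the 30 genes, whereas over all tested genes it was the highest WT sample for 27.7%. Conversely, WT replicate 2 was the lowest WT sample for 19 of the 30, against 21.8% of all tested genes. In p27-/-;Sox2+/- samples, replicate 3 was the highest of its genotype for 25 of the 30, against 37.5% of all tested genes.

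Averaged over the 30 genes, the centred log2 level was 0.38, -0.14, 0.10 and 0.05 in WT, 0.01, -0.04 and -0.01 in p27-/- and -0.19, -0.21 and 0.06 in p27-/-;Sox2+/- samples. The WT range thus enclosed the p27-/- range and overlapped with the p27-/-;Sox2+/- range. WT replicate 2 and the p27-/-;Sox2+/- replicates 1 and 2, where the average was lowest, were also the 3 samples with the lowest posterior lobe markers, and the part of that tissue in the values was not tested. In bulk RNA, fewer macrophages and less of each RNA per macrophage cannot be told apart.

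**Figure D2:**
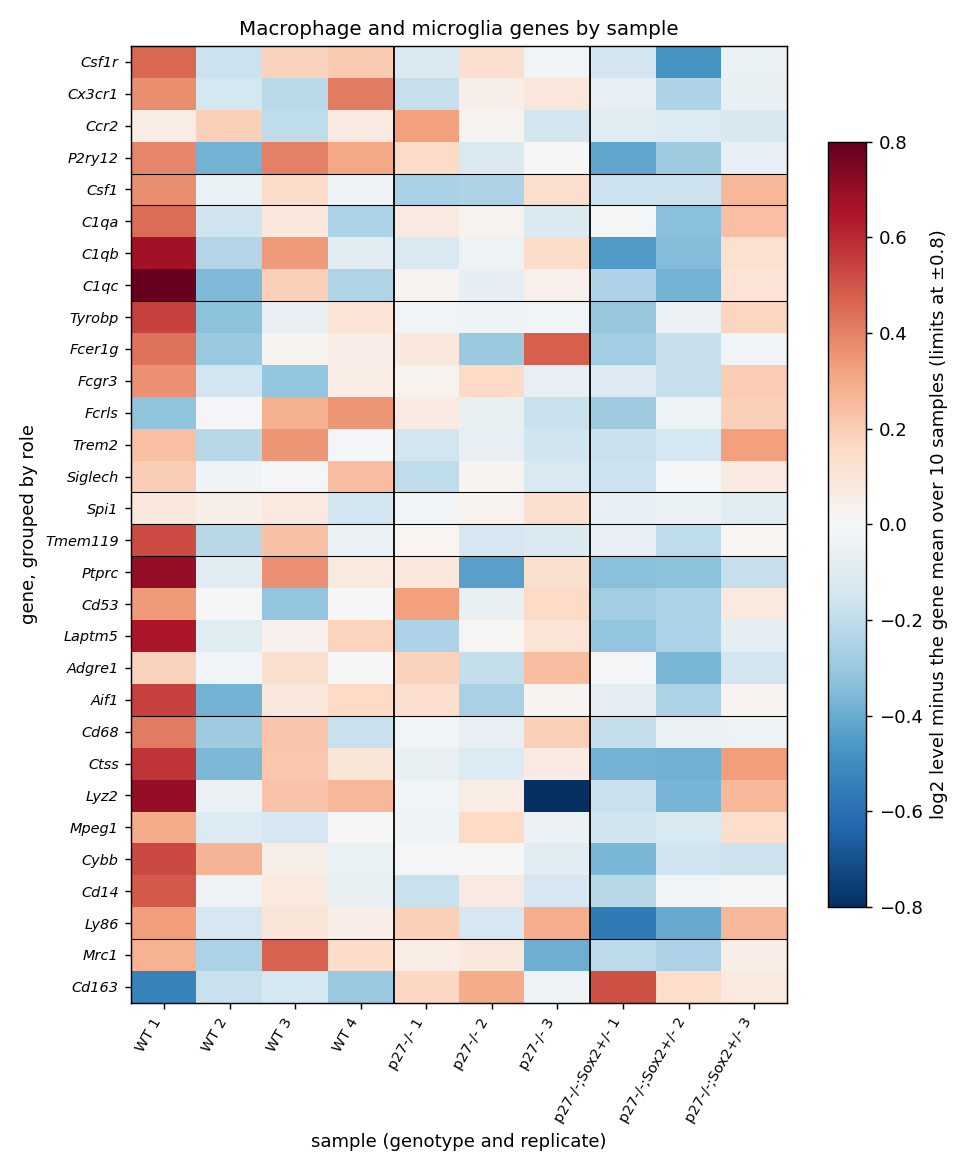
Centred log2 level (colour, log2 level minus the gene's mean over the 10 samples) of the 30 tested genes (rows, grouped by role) in the 10 samples (columns, grouped by genotype). WT replicate 1 is the highest WT sample for 22 genes, and the bottom row, Cd163, runs against most of the others.

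None of the 30 tested genes passed the threshold in any comparison. In p27-/- compared with WT samples, 0 of 30 had an adjusted p under 0.05 (limma, Benjamini-Hochberg adjustment over all tested genes), where 7.78% of all tested genes did, and 2 of 30 had an unadjusted p under 0.05, where 24.1% of all tested genes did. In p27-/-;Sox2+/- compared with WT samples the counts were 0 of 30, against 2.71% of all tested genes, and 6 of 30 unadjusted, against 17.8%. Between p27-/-;Sox2+/- and p27-/- samples they were 0 of 30, against 0.145%, and 0 of 30 unadjusted, against 6.65%. The shares of all genes past the threshold changed with the libraries kept, where each such fit also had fewer mice. The 1343 genes behind the first became between 403 and 609 without 1 p27-/- sample, fewest without replicate 3. The 468 behind the second became between 80 and 240 without 1 p27-/-;Sox2+/- sample, fewest without replicate 2. Without WT replicate 1 these counts rose to 1709 and 658. The 25 between the mutants became 0 without p27-/- replicate 2 or 3 or p27-/-;Sox2+/- replicate 1 or 2.

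The direction was mostly towards lower levels in the mutants. The log2 fold change was below 0 for 21 of the 30 genes in p27-/- compared with WT samples, where it was below 0 for 48.4% of all tested genes, for 29 of 30 in p27-/-;Sox2+/- compared with WT samples (47.9% of all tested genes) and for 24 of 30 between p27-/-;Sox2+/- and p27-/- samples (51.4%). The 2 comparisons with WT share their control samples, and the genes are not independent of each other. The median log2 fold change was -0.14, -0.21 and -0.11, against 0.01, 0.01 and 0.00 over all tested genes. These medians rested partly on single libraries. Without WT replicate 1 they were -0.01 and -0.10 against WT, with 16 and 25 of 30 genes below 0, and without WT replicate 2 they were -0.24 and -0.30. Between the mutants the median was -0.04 without p27-/-;Sox2+/- replicate 2 and -0.17 without its replicate 3. Of the 95% intervals, 29 of 30 lay within a log2 difference of 1 in either direction in p27-/- compared with WT samples, and 30 of 30 did in each of the other comparisons.

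**Figure D3:**
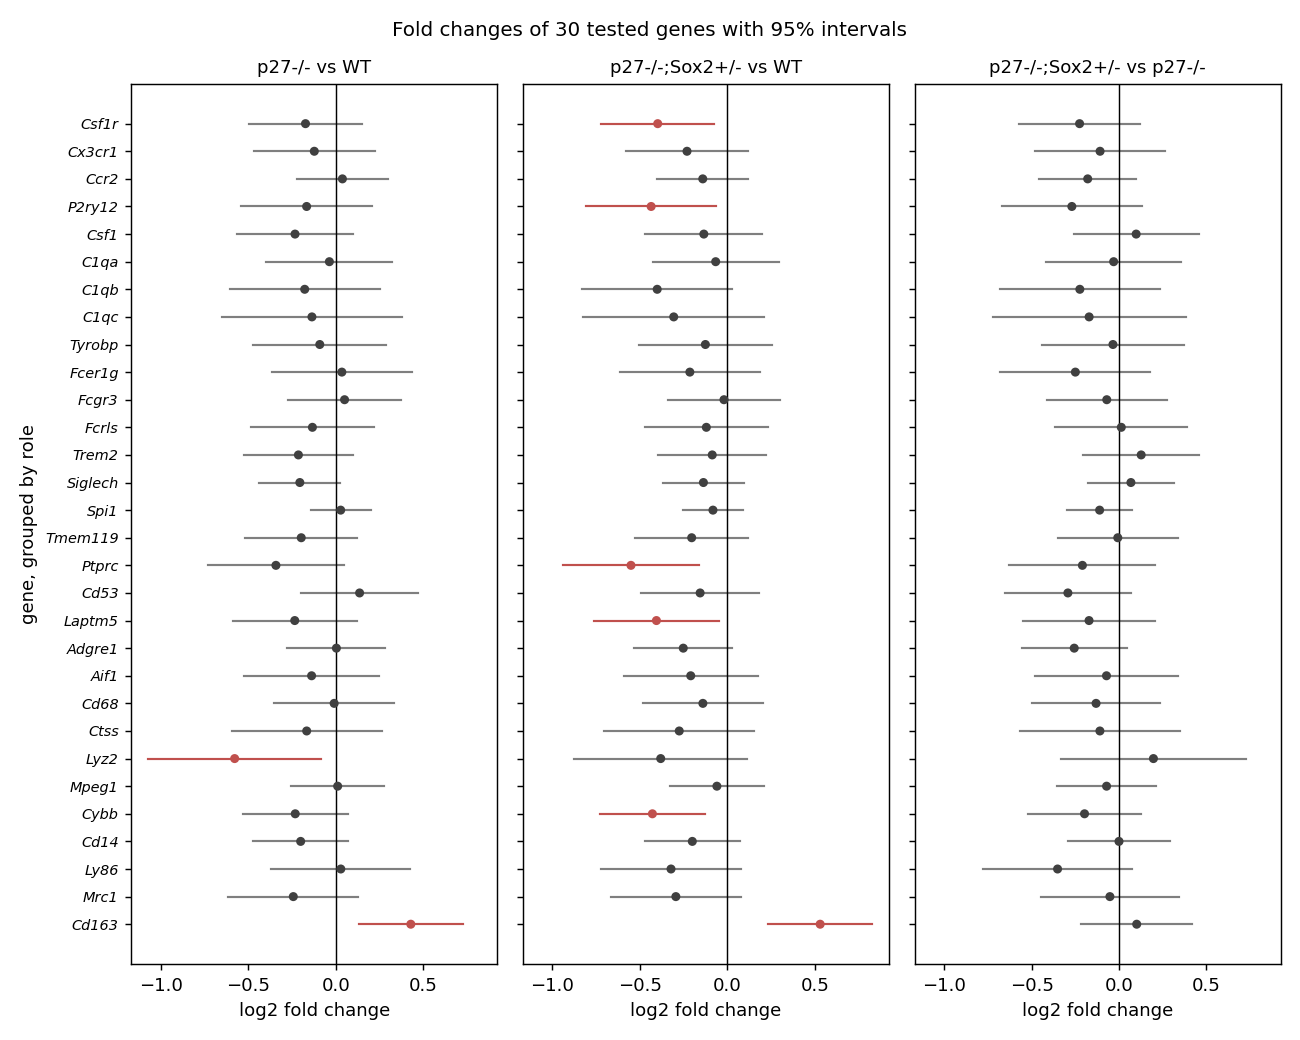
Log2 fold change (x axis, points) with its 95% interval (lines) for the 30 tested genes (y axis, grouped by role) in each of the 3 comparisons, with intervals that exclude 0 in red. Points lie mostly to the left of 0, and the intervals of 2, 6 and 0 genes exclude 0, none with an adjusted p under 0.05.

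Among the receptors, Csf1r, the receptor that macrophages need to survive, was measured at 7.65, 7.02, 7.38 and 7.40 in WT, 7.07, 7.33 and 7.17 in p27-/- and 7.04, 6.71 and 7.14 in p27-/-;Sox2+/- samples. Its highest value was in WT replicate 1 and its lowest in p27-/-;Sox2+/- replicate 2, and the genotypes overlapped. Against WT, the log2 fold change was -0.17 in the p27-/- group (standard error, SE, 0.15, adjusted p = 0.519) and -0.40 in p27-/-;Sox2+/- samples (SE 0.15, adjusted p = 0.175), and -0.23 between the mutants (SE 0.16, adjusted p = 0.940). P2ry12 was at 5.40, 4.63, 5.41 and 5.31 in WT, 5.16, 4.89 and 5.01 in p27-/- and 4.59, 4.72 and 4.94 in p27-/-;Sox2+/- samples. WT replicate 2 stood at 4.63, apart from the other 3 WT samples between 5.31 and 5.41, and within the p27-/-;Sox2+/- range. Its log2 fold change was -0.17 in p27-/- (SE 0.17, adjusted p = 0.601) and -0.44 in p27-/-;Sox2+/- compared with WT samples (SE 0.17, adjusted p = 0.20), and -0.27 between the mutants (SE 0.19, adjusted p = 0.934). Without WT replicate 2 the log2 fold change in p27-/-;Sox2+/- samples was -0.62 with an adjusted p of 0.0178, and over all samples left out in turn the adjusted p ran from 0.0178 to 0.428.

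Cx3cr1, the gene of the fractalkine receptor, was at 6.47, 5.95, 5.88 and 6.502 in WT, 5.91, 6.14 and 6.18 in p27-/- and 6.03, 5.85 and 6.03 in p27-/-;Sox2+/- samples. The highest values were in WT replicates 1 and 4, and the mutants lay inside the WT range except for p27-/-;Sox2+/- replicate 2. For Ccr2 they were 4.34, 4.47, 4.08 and 4.35 in WT, 4.61, 4.30 and 4.13 in p27-/- and 4.18, 4.17 and 4.15 in p27-/-;Sox2+/- samples. The highest Ccr2 value was in p27-/- replicate 1, and the p27-/-;Sox2+/- samples, which differed least among themselves, lay inside the WT range.

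Of the ligands, only Csf1 was above the minimum, with 6.92, 6.49, 6.69 and 6.51 in WT, 6.28, 6.29 and 6.69 in p27-/- and 6.37, 6.37 and 6.81 in p27-/-;Sox2+/- samples. WT replicate 1 was again the highest and the genotypes overlapped. Il34, which encodes the other ligand of CSF1R, was low, at 3.10, 3.38, 3.04 and 3.38 in WT, 3.05, 3.20 and 3.25 in p27-/- and 3.17, 3.24 and 3.09 in p27-/-;Sox2+/- samples. Ccl2, the chemokine that draws in monocytes through CCR2, was lower still, at 2.99, 2.51, 2.499 and 2.65 in WT, 2.65, 2.72 and 2.64 in p27-/- and 2.58, 2.48 and 2.58 in p27-/-;Sox2+/- samples. WT replicate 1 was the only sample with a Ccl2 value above 2.72.

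The genes of the C1q chains lie next to each other on chromosome 4 of GRCm38, C1qb from 136880126 to 136886200, C1qc from 136889801 to 136892936 and C1qa from 136895916 to 136898844. C1qa was at 5.42, 4.82, 5.06 and 4.72 in WT, 5.05, 5.003 and 4.86 in p27-/- and 4.96, 4.64 and 5.22 in p27-/-;Sox2+/- samples. C1qb was at 7.66, 6.75, 7.33 and 6.90 in WT, 6.87, 6.95 and 7.14 in p27-/- and 6.53, 6.64 and 7.11 in p27-/-;Sox2+/- samples. C1qc was at 7.53, 6.23, 6.78 and 6.35 in WT, 6.61, 6.52 and 6.63 in p27-/- and 6.34, 6.21 and 6.70 in p27-/-;Sox2+/- samples. All 3 chains were highest in WT replicate 1, and both C1qb and C1qc were next highest in WT replicate 3. C1qb and C1qc varied most closely together (r = 0.92 over 10 samples), followed by C1qa and C1qc (0.88) and C1qa and C1qb (0.73). The SD between WT mice, 0.31 for C1qa, 0.41 for C1qb and 0.58 for C1qc on the log2 scale, was as large as or larger than the distance between the genotype means, 5.005, 4.97 and 4.94 for C1qa, 7.16, 6.98 and 6.76 for C1qb and 6.72, 6.59 and 6.41 for C1qc in WT, p27-/- and p27-/-;Sox2+/- samples. None of the 3 passed the threshold in any comparison, where 7.78%, 2.71% and 0.145% of all tested genes did.

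Of the receptors and adaptors that signal through ITAM motifs or bind antibody Fc parts, 0 of 6 passed. Over all tested genes, 7.78%, 2.71% and 0.145% passed in the 3 comparisons. Trem2, the lipid receptor of phagocytic microglia, was at 4.25, 3.79, 4.36 and 4.001 in WT, 3.86, 3.95 and 3.85 in p27-/- and 3.83, 3.87 and 4.34 in p27-/-;Sox2+/- samples. Samples at 4.25 or above were WT replicates 1 and 3 and p27-/-;Sox2+/- replicate 3, which all had high posterior lobe markers, as had WT replicate 4 with a Trem2 value of 4.001, and the p27-/- samples lay together between 3.85 and 3.95. Tyrobp, the adaptor of TREM2, had means of 6.48 in WT, 6.39 in p27-/- and 6.36 in p27-/-;Sox2+/- samples and ran from 6.09 in WT replicate 2 to 6.96 in WT replicate 1. Fcer1g, the adaptor of Fc receptors, ran from 5.93 to 6.70, with the highest value in p27-/- replicate 3. Fcgr3, an Fc receptor for immunoglobulin G, lay between 4.29 and 4.96, and Fcrls, an Fc receptor-like gene of microglia, between 4.95 and 5.62. Siglech, a lectin of microglia and plasmacytoid dendritic cells, lay between 4.25 and 4.70. The value of Fcrls was lowest in WT replicate 1, the sample where most of the other genes were highest.

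Spi1, which encodes PU.1, was near the minimum, at 3.498, 3.45, 3.48 and 3.25 in WT, 3.39, 3.43 and 3.53 in p27-/- and 3.34, 3.35 and 3.32 in p27-/-;Sox2+/- samples. It had the smallest standard errors of the 30 genes, and all p27-/-;Sox2+/- values were below all p27-/- values (3.32 to 3.35 against 3.39 to 3.53), without a change that passed the threshold. Together with Cybb, it was 1 of 2 genes of the 30 that did not overlap in this direction between the mutants, where 7.75% of all tested genes did not. Tmem119, a surface protein of microglia, averaged 4.83 in the 4 WT mice, with an SD of 0.33, 4.63 in the 3 p27-/- mice, with an SD of 0.08, and 4.62 in the 3 p27-/-;Sox2+/- mice, with an SD of 0.11.

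Among genes of the surface and cytoplasm of leukocytes or macrophages, Ptprc, which encodes CD45 and marks all leukocytes, was at 7.51, 6.73, 7.18 and 6.89 in WT, 6.89, 6.37 and 6.94 in p27-/- and 6.48, 6.48 and 6.62 in p27-/-;Sox2+/- samples. All p27-/-;Sox2+/- samples lay below all WT samples, and p27-/- replicate 2 was the lowest of the 10. Against WT, it differed by a log2 fold change of -0.34 in p27-/- (SE 0.18, adjusted p = 0.271) and -0.55 in p27-/-;Sox2+/- samples (SE 0.18, adjusted p = 0.125), and -0.21 between the mutants (SE 0.19, adjusted p = 0.980). Laptm5, a lysosomal membrane protein of blood cells, was at 6.76, 6.02, 6.15 and 6.29 in WT, 5.87, 6.12 and 6.22 in p27-/- and 5.80, 5.86 and 6.04 in p27-/-;Sox2+/- samples. The highest of the p27-/-;Sox2+/- samples was just above the lowest WT sample. Against WT its log2 fold change was -0.23 in p27-/- (SE 0.17, adjusted p = 0.416) and -0.41 in p27-/-;Sox2+/- samples (SE 0.17, adjusted p = 0.211), and -0.17 between the mutants (SE 0.18, adjusted p = 0.985). Aif1, which encodes the cytoskeletal protein IBA1 used to stain microglia, was at 5.85, 4.93, 5.40 and 5.47 in WT, 5.44, 5.05 and 5.33 in p27-/- and 5.23, 5.05 and 5.33 in p27-/-;Sox2+/- samples. WT replicates 1 and 2 were its highest and lowest samples. Cd53, a tetraspanin, lay between 5.04 and 5.70, and Adgre1, which encodes F4/80, between 4.76 and 5.37, and neither separated the genotypes.

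Of the 7 genes of lysosomes, phagocytosis and innate defence, Cybb, a subunit of the NADPH oxidase of phagocytes, was at 6.77, 6.51, 6.28 and 6.19 in WT, 6.23, 6.24 and 6.15 in p27-/- and 5.88, 6.08 and 6.07 in p27-/-;Sox2+/- samples. The p27-/-;Sox2+/- samples were all lower than the WT and p27-/- samples. Its log2 fold change was -0.23 in p27-/- (SE 0.14, adjusted p = 0.336) and -0.43 in p27-/-;Sox2+/- compared with WT samples (SE 0.14, adjusted p = 0.121), and -0.20 between the mutants (SE 0.15, adjusted p = 0.953). Ptprc and Cybb were the 2 of 30 genes lower without overlap in p27-/-;Sox2+/- than in WT samples, where 8.01% of all tested genes were. Lyz2, the lysozyme of macrophages, was at 8.20, 7.44, 7.72 and 7.76 in WT, 7.46, 7.55 and 6.58 in p27-/- and 7.31, 7.12 and 7.76 in p27-/-;Sox2+/- samples. Replicate 3 of p27-/- was far below the other 9 samples. The log2 fold change was -0.58 in p27-/- (SE 0.23, adjusted p = 0.143) and -0.38 in p27-/-;Sox2+/- compared with WT samples (SE 0.23, adjusted p = 0.413), and 0.20 between the mutants (SE 0.25, adjusted p = 0.985). Without p27-/- replicate 3 the first of these was -0.27. Its near-identical copy Lyz1 lay at the floor of the table, between -1.89 and -1.87 in every sample. Ctss ran from 7.87 to 8.83, Mpeg1, the pore-forming perforin-2 of macrophages, from 7.67 to 8.12, Cd68, a lysosomal glycoprotein, from 6.04 to 6.75, Ly86, which encodes MD-1, from 5.12 to 6.02 and Cd14, a co-receptor for lipopolysaccharide, from 3.54 to 4.26. WT replicate 1 held the highest value of each of these 5 genes.

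Cd163, the haemoglobin scavenger receptor of perivascular macrophages, went the other way. On chromosome 6 from 124304636 to 124330529, it was at 4.50, 4.86, 4.90 and 4.75 in WT, 5.20, 5.34 and 5.002 in p27-/- and 5.55, 5.18 and 5.12 in p27-/-;Sox2+/- samples. All mutant samples lay above all WT samples, and the lowest value of the 10 was in WT replicate 1, where most of the other genes peaked. Relative to WT, the log2 fold change was 0.43 in p27-/- (SE 0.14, 95% interval 0.13 to 0.73, adjusted p = 0.0749) and 0.53 in p27-/-;Sox2+/- samples (SE 0.14, 95% interval 0.23 to 0.83, adjusted p = 0.0586), so that neither passed the threshold. The exact permutation test of Cd163 alone gave p = 0.0571 (two-sided) for each mutant, the lowest p possible with 4 against 3 mice. This p restates the lack of overlap. In p27-/-;Sox2+/- compared with WT samples, Ptprc, Cybb and Lyve1, which was under the minimum, had the same p. Between the mutants the log2 fold change of Cd163 was 0.10 (SE 0.15, adjusted p = 0.985). It was the only 1 of the 30 genes higher without overlap in a mutant than in WT samples, where 10.2% of all tested genes were in p27-/- and 7.02% in p27-/-;Sox2+/- samples. The call depended on the model. With quantile normalization the adjusted p was 0.0455 in p27-/- and 0.0377 in p27-/-;Sox2+/- samples, with Xist as a covariate for sex 0.0399 and 0.0287, and with array weights 0.0384 in p27-/-;Sox2+/- samples. Over all alternatives with the 10 samples it ran from 0.0399 to 0.172 and from 0.0287 to 0.142. With each sample left out in turn it ran from 0.0626 to 0.245 and from 0.0583 to 0.210.

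Across the 10 samples Cd163 correlated negatively with each of the other 29 tested genes, from r = -0.83 for Laptm5, -0.82 for Ptprc and -0.80 for Cybb to -0.15 for Ccr2. Mrc1, the mannose receptor of the same perivascular macrophages, was at 6.21, 5.68, 6.41 and 6.09 in WT, 5.998, 6.03 and 5.55 in p27-/- and 5.73, 5.69 and 5.99 in p27-/-;Sox2+/- samples. Its highest values were in WT replicates 3 and 1 and its correlation with Cd163 was -0.41. The other genes of border-associated macrophages were under the minimum for testing. Lyve1, the hyaluronan receptor, was at 1.58, 1.65, 1.58 and 1.58 in WT, 1.67, 1.61 and 1.70 in p27-/- and 1.72, 1.66 and 1.72 in p27-/-;Sox2+/- samples. All p27-/-;Sox2+/- values lay above all WT values, by a narrow margin, whereas p27-/- samples overlapped with WT. The whole range was 0.14. F13a1, the clotting factor XIII subunit of macrophages, was at 2.55, 2.38, 2.61 and 2.34 in WT, 2.60, 2.495 and 2.36 in p27-/- and 2.43, 2.35 and 2.48 in p27-/-;Sox2+/- samples, with overlap of all genotypes.

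**Figure D4:**
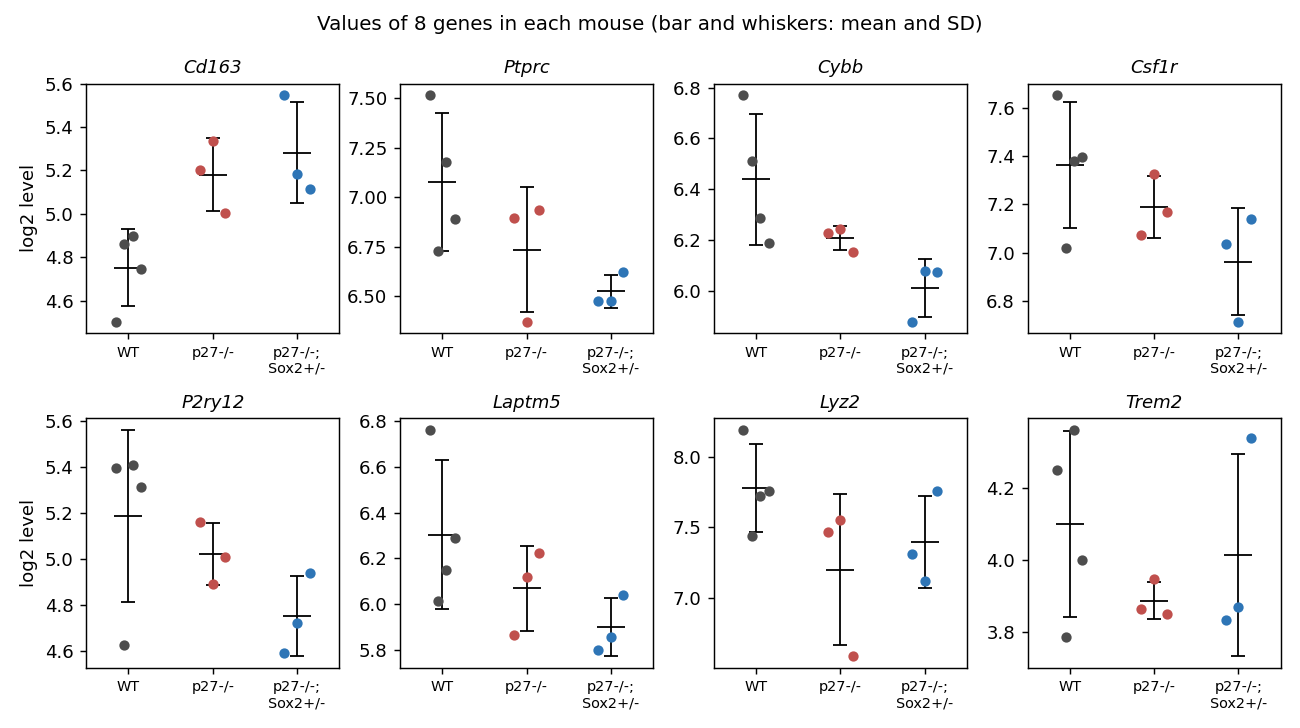
Log2 level (y axis) in each mouse (points) by genotype (x axis) of the 7 genes with an unadjusted p under 0.05 in a comparison and of Trem2, with the genotype mean and SD as bar and whiskers. All mutant Cd163 values, 5.002 to 5.55, lie above the WT values, 4.50 to 4.90, and the y axes do not start at 0.

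In a list of 60 further macrophage and microglia genes, 48 were tested. Of these, 3 were lower in p27-/- than in WT samples, where 7.78% of all tested genes passed in either direction. In p27-/-;Sox2+/- compared with WT samples 1 was lower, where 2.71% of all tested genes passed, and none differed between the mutants. The median log2 fold changes were -0.12, -0.13 and -0.04. The mean centred level of the 48 genes lay between 0.00054 and 0.23 in WT, between -0.042 and -0.015 in p27-/- and between -0.14 and -0.036 in p27-/-;Sox2+/- samples, so that WT did not overlap with either mutant, by a narrow margin for WT replicate 2, whereas it overlapped with both for the 30 genes above. Marker lists of stem cells and of mast cells also lacked overlap, with values given beside the complement genes below. Runx1, a transcription factor of blood cells also made by other tissues, fell by 0.59 on the log2 scale in p27-/- (adjusted p = 0.0121) and fell by 0.67 in p27-/-;Sox2+/- samples (adjusted p = 0.0119). Each call was lost without 1 sample, at an adjusted p of 0.0757 without p27-/- replicate 3 and 0.0633 without p27-/-;Sox2+/- replicate 2. Sall1, a transcription factor of microglia, fell by 0.53 in p27-/- samples (adjusted p = 0.0270, up to 0.104 without p27-/- replicate 2, and lost without any of 4 samples). The WT mean of Sall1 was 7.61, above those of P2ry12 (5.19) and Tmem119 (4.83), and its share from microglia was not tested. Olfml3, a secreted protein of microglia and vessels, fell by 0.55 (adjusted p just under the threshold of 0.05, and lost without any of 8 samples, up to 0.174 without p27-/- replicate 3).

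Of 18 complement genes other than C1q, 15 were tested. Compared with WT, 2 fell in p27-/- and 1 in p27-/-;Sox2+/- samples, where 7.78% and 2.71% of all tested genes passed in either direction. C2, a component of the classical pathway, fell by 0.63 in p27-/- samples (adjusted p = 0.00552, 0.0274 at most with a sample left out). Cd59a, which protects cells from complement lysis, fell by 0.60 (adjusted p = 0.0243, up to 0.123 without p27-/- replicate 3, and lost without any of 3 samples). C3, the central complement protein, fell by 1.79 in p27-/-;Sox2+/- samples (adjusted p = 0.0126, 0.0633 without p27-/-;Sox2+/- replicate 2, and lost without either of 2 samples). The mean centred level of the 15 genes lay between 0.09 and 0.28 in WT samples, between -0.13 and -0.01 in p27-/- and between -0.23 and -0.09 in p27-/-;Sox2+/- samples, without overlap between WT and either mutant. This was not particular to complement or macrophage genes. Stem cell markers (5 tested) lay at 0.11 to 0.26 in WT, -0.31 to 0.03 in p27-/- and -0.24 to -0.002 in p27-/-;Sox2+/- samples. Mast cell markers (2 tested) were higher in the mutants, also without overlap. They lay at -0.33 to -0.09 in WT, 0.08 to 0.16 in p27-/- and 0.08 to 0.30 in p27-/-;Sox2+/- samples.

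Of 20 genes that microglia raise in disease, 17 were tested. Compared with WT, 3 fell in p27-/- and 2 in p27-/-;Sox2+/- samples, where 7.78% and 2.71% of all tested genes passed in either direction. Spp1, which encodes osteopontin, fell by 1.15 in p27-/- (adjusted p = 0.00576, 0.0405 at most with a sample left out) and fell by 1.11 in p27-/-;Sox2+/- samples (adjusted p = 0.0127, up to 0.0800 without replicate 2 of that genotype, and lost without either of 2 samples). Ctsz, the lysosomal protease cathepsin Z, fell by 0.55 in p27-/- (adjusted p = 0.0166, up to 0.0809 without p27-/- replicate 1, and lost without either of 2 samples) and fell by 0.53 in p27-/-;Sox2+/- samples (adjusted p = 0.0311, up to 0.177 without replicate 2 of that genotype, and lost without any of 5 samples). Axl, a receptor for apoptotic cells that fibroblasts and vessels also carry, fell by 0.76 in p27-/- samples (adjusted p = 0.0329, up to 0.149 without p27-/- replicate 3, and lost without any of 4 samples). Many genes of this list and of the complement list are also made by other cells of the pituitary, and the share that comes from macrophages was not tested.

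Of 28 chemokine, chemokine receptor and colony-stimulating factor genes, 26 were in the table and 13 were tested. Cxcl14, a chemokine of epithelia, rose by 0.67 in p27-/- compared with WT samples (adjusted p = 0.00715, 0.0385 at most with a sample left out), and its log2 fold change was 0.11 in p27-/-;Sox2+/- compared with WT samples (adjusted p = 0.692) and -0.56 between the mutants (adjusted p = 0.186). Of 25 inflammatory cytokine and interferon genes, 15 were tested, and Arg1, an arginase of macrophages and other cells, rose by 0.45 in p27-/- samples (adjusted p = 0.0464, up to 0.177 without p27-/- replicate 1, and lost without any of 9 samples). The mean centred level of these 15 genes was highest in p27-/- replicate 3, at 0.54, and WT replicate 1, at 0.40, with the other samples between -0.29 and 0.00. Cxcl14 and Arg1 were the only calls of their lists, 1 of 13 and 1 of 15 genes. Of all tested genes, 7.78% passed in either direction in p27-/- compared with WT samples.

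**Figure D5:**
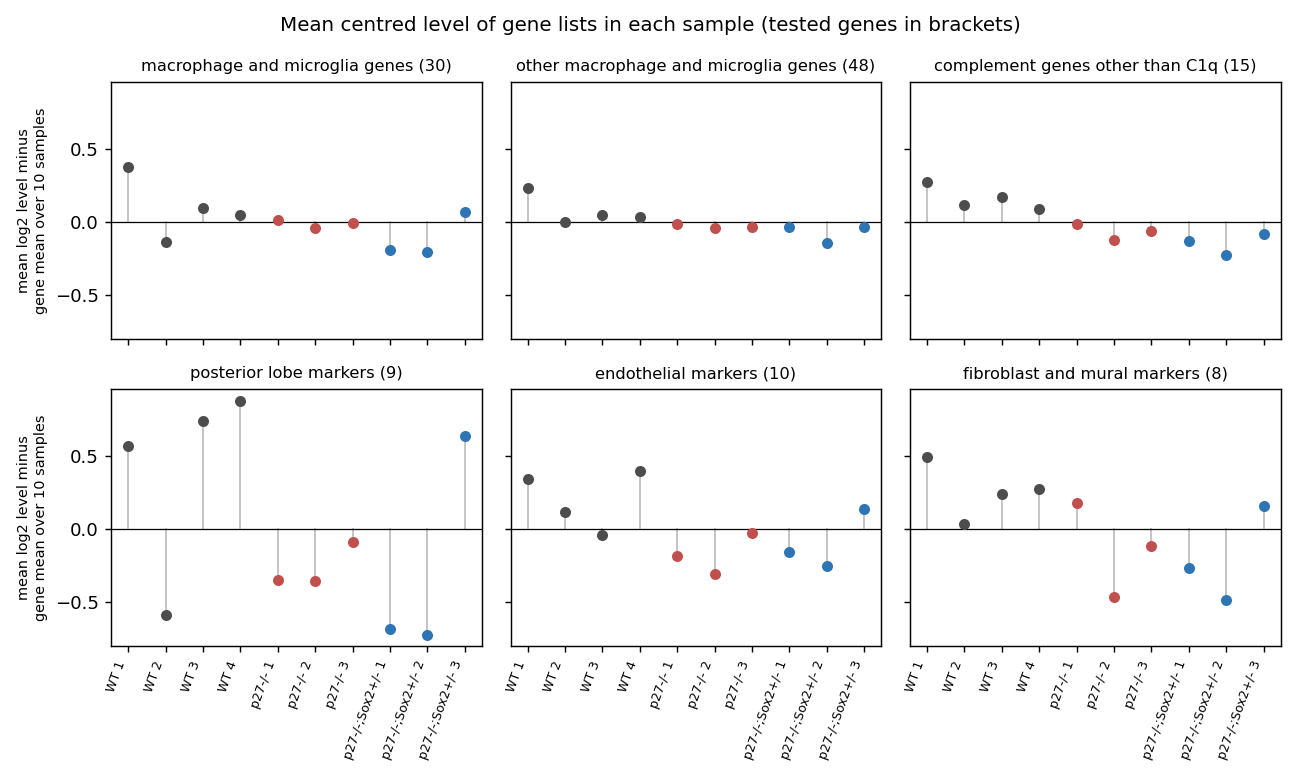
Mean centred log2 level (y axis) of 6 gene lists in the 10 samples (x axis), with points coloured by genotype and the number of tested genes in brackets. Posterior lobe markers are at 0.57 or above in WT replicates 1, 3 and 4 and in p27-/-;Sox2+/- replicate 3 and at -0.09 or below in the other samples, and the macrophage and microglia genes range from -0.21 to 0.38.

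Beside the member genes, the 10 tested genes whose values were most like the mean profile of Aif1, Csf1r, C1qa, C1qb, C1qc, Cx3cr1, Tyrobp, Fcer1g, Laptm5 and Ctss across the 10 samples were Tti1 (r = 0.95), Glce (0.95), C4b (0.94), Gm8995 (0.93), Tcn2 (0.93), Adamts5 (0.93), Myh7b (0.92), AI854703 (0.91), Fbln2 (0.91) and Irgm2 (0.91). C4b is a complement gene, Fbln2 and Adamts5 encode proteins of the extracellular matrix, and Irgm2 is induced by interferon. The posterior lobe hormone gene Oxt, named after its value was seen, had an r of 0.90. Among the listed genes themselves, Ctss (0.95), C1qc (0.94) and C1qb (0.94) were the most like this profile, of which they are part, Tmem119 was the most like it among those not used for it (0.88), and Spi1 (0.35), Ccr2 (-0.03), Fcrls (-0.10) and Cd163 (-0.69) were the least like it.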

How the data were processed

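RNA was extracted from dissected IL, amplified with the Ovation RNA-seq System and sequenced by Illumina. Per the submitters' processing notes and the study's methods, the authors used STAR 2.5.2a for alignment and RSEM for gene counts on Ensembl transcripts of mouse GRCm38, with strand ignored, so that overlapping antisense transcripts cannot be told apart. They normalised the counts with DESeq2 1.18.1 and deposited log2 values, with a transformation that is not named. Whether it compressed the values of genes with few reads was not tested. The table holds no read counts, so that library depth is unknown here and precision is set by the number of mice.

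Gene IDs were matched to symbols for 22709 of 29527 rows, and positions were taken from RefSeq (GRCm38.p6). Exon lengths for levels per kb are those of the GENCODE annotation of an earlier build. Genes averaging 10 or more in linear units (3.32 as log2) were tested with limma 3.58.1 in R 4.3.3, in 1 fit of 3 genotypes with a mean-variance trend, with Benjamini-Hochberg adjustment over the 17268 genes and a threshold of 0.05. The script was tested on simulated data. Tables and figures were made in Python 3.11.15 with pandas 2.3.3, numpy 2.4.6, scipy 1.17.1 and matplotlib 3.10.9. No count test and no other pseudocount could be applied to log2 values.

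Members and lists were chosen with earlier results of these data known. All 34 genes were accounted for. Values per sample were given for genes past the threshold or with an unadjusted p under 0.05 in a comparison and for a list of leading genes of each role, and other genes by mean, range and counts. From the other lists, genes past the threshold were named, at most 5 a list, and the 10 genes most alike in pattern were named by Pearson's r with the mean profile of 10 members. Alternatives were quantile normalization, median centring, array weights, no trend, a minimum mean of 50 or none, fits of single pairs of groups, Xist as a covariate for sex, a replicate block, and leaving out each sample.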

Additional observations from a re-analysis of the deposited data

Results flagged for a closer look

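In each gene, the highest and the lowest of the 4 WT samples were set against the other 3, and groups of 3 samples were not examined. Of the 34 genes, 2 had a WT sample far from the rest, where about 1.7 would be found by chance at 1 in 20. For P2ry12, WT replicate 2 was at 4.63 on the log2 scale, while the other WT samples lay between 5.31 and 5.41. For Lyve1, which is under the minimum level, WT replicate 2 was at 1.645, while the others lay at 1.58. WT replicate 2 also had the lowest posterior lobe markers (-0.59) and the highest anterior lobe markers (1.65) of the WT samples, and the part of these tissues in its P2ry12 value was not tested.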

How the results depend on the processing

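The number of tested genes of the list past the threshold was 0 in each comparison. It became 1, Cd163, with quantile normalization and with Xist as a covariate in both comparisons with WT, and 1, Cd163, with array weights in p27-/-;Sox2+/- compared with WT samples. With a sample left out in turn it ran from 0 to 1 in p27-/-;Sox2+/- compared with WT samples, the 1 being P2ry12 without WT replicate 2, and stayed at 0 in the other comparisons. The cause of these changes was not tested. The median log2 fold change stayed below 0 in every alternative, between -0.08 and -0.17 in p27-/- and between -0.15 and -0.30 in p27-/-;Sox2+/- compared with WT samples with all 10 samples, and moved by less than the spread between mice throughout. With a sample left out it ran from -0.24 to -0.01, from -0.30 to -0.10 and from -0.17 to -0.04 in the 3 comparisons. Of the 7 genes with fold changes given, the direction turned in 2 cases, both between the mutants: Lyz2 at -0.11 without p27-/- replicate 3, within a range of -0.11 to 0.37 over the samples left out, and Cd163 at -0.032 without p27-/-;Sox2+/- replicate 1, within a range of -0.032 to 0.18. Of 234 values of the called genes of other lists, 34 lost the call in another setting and none turned direction. With a sample left out, 86 of 260 such values lost the call and none turned direction. Over all genes the number called was 1343, 468 and 25 in the 3 comparisons, 831, 312 and 6 without a filter, 807, 260 and 45 with only the groups compared and 1764, 1240 and 283 with array weights. Without a trend it was 8 and with quantile normalization 15 between the mutants. With a sample left out it ran from 403 (without p27-/- replicate 3) to 1709 (without WT replicate 1), from 80 (without p27-/-;Sox2+/- replicate 2) to 658 (without WT replicate 1), and from 0 to 41 (without WT replicate 1). It fell by more than 1.5 times without WT replicate 3 or 4 or any p27-/- sample in the first comparison, without WT replicate 4 or any p27-/-;Sox2+/- sample in the second, and without WT replicate 4 or any mutant sample in the third. The replicate numbers gave no sign of pairing the mice, although correlations among so few mice cannot exclude it. Correlations of deviations from the genotype means ran from -0.24 to 0.18 for same-numbered samples. By this measure WT replicate 1 correlated better with p27-/-;Sox2+/- replicate 2 (0.12) than with replicate 1 (-0.11). With the replicate number as a block the counts were 0, 0 and 0 for the listed genes and 595, 209 and 2 for all genes. The depth of each library is unknown from the table, and Il34, Ccl2, Lyve1 and F13a1 were too low to be tested.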

Other observations

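Markers of other leukocytes were mostly under the minimum, with exceptions. Of the T cell markers, Cd3d, Cd3e and Cd3g, the chains that define the lineage, had mean log2 levels of 0.35, 2.51 and 0.70, under the minimum of 3.32, and 5 of 13 markers were tested, none of them past the threshold. These 5 were Cd247 at 7.82, Trbc2 at 6.22, Trac at 5.27, Lck at 5.01 and Cd4 at 3.74. Of the B cell markers, 1 of 10, Ighm, was tested, at 5.52, and did not pass. No NK cell and no neutrophil marker reached the minimum. Of the mast cell markers, Cpa3, Tpsb2 and Ms4a2 were at -0.38, -1.88 and -1.88, close to the lowest values of the table, while Kit, a receptor that other cells also carry, was at 10.04. Kit rose by 0.47 in p27-/- (adjusted p = 0.0116, limma, 0.0728 without p27-/- replicate 3) and rose by 0.52 in p27-/-;Sox2+/- compared with WT samples (adjusted p = 0.0127, up to 0.0734 without p27-/-;Sox2+/- replicate 2, and lost without either of 2 samples). Hdc, the other tested mast cell marker, was at 4.77. Of the dendritic cell markers, 5 of 9 were tested, Zbtb46 at 7.58, Ccr9 at 5.36 and Siglech among them, and none passed. Over all tested genes, 7.78%, 2.71% and 0.145% passed in the 3 comparisons. With so few markers tested, the counts of calls say little about these cells. The mean centred level of 3 red cell markers ran from -1.02 to 1.29 and was highest in p27-/- replicate 1, which had neither the highest nor the lowest mean level of the macrophage and microglia genes.

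Of the markers of other cells in the dissected tissue, 0 of 9 posterior lobe markers passed the threshold. Their median log2 fold changes were -0.65 and -0.62 against WT. Of all tested genes, 7.78% passed in p27-/- and 2.71% in p27-/-;Sox2+/- compared with WT samples. Among 8 anterior lobe markers Fshb fell by 2.04 in p27-/- (adjusted p = 0.0280, up to 0.123 without p27-/- replicate 3) and fell by 2.27 in p27-/-;Sox2+/- compared with WT samples (adjusted p = 0.0294, up to 0.162 without p27-/-;Sox2+/- replicate 2). Of 10 endothelial markers, 2 fell in both mutants: Kdr by 0.83 (adjusted p = 0.00966, up to 0.0526 without p27-/- replicate 2) and 0.67 (adjusted p = 0.0459, up to 0.208 without p27-/-;Sox2+/- replicate 2), and Flt1 by 0.75 (adjusted p = 0.0290, up to 0.125 without p27-/- replicate 2) and 0.80 (adjusted p = 0.0379, up to 0.158 without p27-/-;Sox2+/- replicate 2). Of 8 fibroblast and mural markers, Lum and Pdgfra each fell by 0.75 in p27-/- samples (adjusted p just under 0.05 and 0.0459, up to 0.205 without p27-/- replicate 3 and 0.15 without p27-/- replicate 2). Of 6 melanotroph markers, Pcsk2 rose by 0.53 in p27-/- samples (adjusted p = 0.0352, up to 0.140 without p27-/- replicate 3), and Pcsk1 fell by 0.45 in p27-/- (adjusted p = 0.0206, 0.112 without p27-/- replicate 3) and fell by 0.42 in p27-/-;Sox2+/- samples (adjusted p = 0.0498, up to 0.181 without p27-/-;Sox2+/- replicate 1). Of 5 tested stem cell markers, Cdh1 fell by 0.58 in p27-/- samples (adjusted p = 0.0126, 0.0757 without p27-/- replicate 3).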
